A study of Mus musculus with 6 samples.

Results

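The osteoclast genes described here are Tnfrsf11a, Acp5, Ctsk, Nfatc1, Dcstamp, Ocstamp, Oscar, Calcr, Mmp9 and Atp6v0d2. They were chosen by name for their known roles in osteoclasts, as 10 of 21631 protein-coding genes on mouse chromosomes 1 to 19 and X. Each locus is the RefSeq span of the gene plus 10 kb on each side, and every peak that overlapped it in any of the 6 libraries was used. Open chromatin was mapped by ATAC-seq, in which a transposase inserts sequencing adapters into accessible DNA, in macrophages from the bone marrow of wild-type BALB/c mice. The old group was 3 libraries from mice aged over 78 weeks and the young group was 3 libraries from mice aged 3 weeks. In both groups the marrow was crushed out of femora, tibiae and humeri, the non-adherent cells were taken away and the adherent cells were expanded in alpha-MEM with 20% fetal bovine serum, after which they were typed as F4/80+CD169+. The labels name no RANK ligand in this medium, and they do not say whether the libraries of one age came from separate mice or cultures, so each p-value rests on the variation among these 6 libraries alone, part or all of which may be technical. The comparison asks which of these loci differ in accessibility between old and young marrow macrophages.

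Osteoclasts are multinucleated cells of the macrophage lineage that resorb bone. The receptor RANK, the product of Tnfrsf11a, receives RANK ligand and acts through TRAF6, NF-kB and AP-1 to switch on Nfatc1, the master transcription factor of osteoclast formation, while immune receptors such as OSCAR give a costimulatory calcium signal. NFATc1 then works with PU.1 and MITF on genes for cell fusion (Dcstamp, Ocstamp and Atp6v0d2), for bone resorption (Acp5, Ctsk and Mmp9) and for the calcitonin receptor, Calcr, through which calcitonin restrains the mature cell. A macrophage can carry open sites at such genes without making their products, so a peak is a measure of accessible DNA and not of expression.

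RefSeq promoter entries of GRCm38.p6 were matched for 5 of the 10 genes, with 8 start sites between them (1 each for Tnfrsf11a, Ctsk and Oscar, 2 for Calcr and 3 for Acp5). Ctsk and Tnfrsf11a had a start under a peak in all 6 libraries, so the 250 bases upstream of these starts are shown, 5′ to 3′ on the plus strand, the strand of both genes. Capitals mark PU.1 motifs, GAGGAAG on either strand.
Ctsk, chr3:95498960-95499209: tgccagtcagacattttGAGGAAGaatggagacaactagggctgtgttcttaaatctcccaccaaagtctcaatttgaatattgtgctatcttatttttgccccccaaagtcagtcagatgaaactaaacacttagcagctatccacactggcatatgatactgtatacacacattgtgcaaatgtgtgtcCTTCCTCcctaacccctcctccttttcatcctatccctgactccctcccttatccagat
Tnfrsf11a, chr1:105780473-105780722: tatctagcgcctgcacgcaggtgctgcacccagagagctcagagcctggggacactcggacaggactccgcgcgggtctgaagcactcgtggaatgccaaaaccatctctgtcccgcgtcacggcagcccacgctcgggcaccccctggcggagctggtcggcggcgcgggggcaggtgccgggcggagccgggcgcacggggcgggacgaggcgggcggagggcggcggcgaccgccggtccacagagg
The Ctsk stretch was 43.2% G or C and held 2 PU.1 matches, from 233 to 227 and from 59 to 53 bases before the start. At least 1 PU.1 match was found in 10.6% of the 32851 promoter windows of this length. The Tnfrsf11a stretch was 73.6% G or C and held no match to any of the 7 motifs searched on both strands. Those motifs and their shares over all promoters were AP-1 (TGANTCA, 6.75%), PU.1, NFAT (TGGAAA, 18.6%), the E-box of MITF (CACGTG, 6.02%), NF-kB (the kappa-B motif, 17.6%), RUNX (TGTGGT, 14.0%) and the TATA box (TATAAA, 12.4%). Among the windows not shown, that of Oscar held PU.1 and NFAT matches, one of Acp5 an NFAT match and one of Calcr an NF-kB match. The starts of Oscar and Calcr had no peak in any library, so matches were not confined to open starts. A match is a description of the letters and not evidence that a factor was bound.

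The old lists held 245667, 227978 and 215947 peaks over 63.8, 48.2 and 49.0 Mb, and the young lists held 243924, 223018 and 254410 peaks over 62.2, 52.4 and 66.1 Mb. Covered base pairs were therefore scaled to the mean library sum over all loci, and the 50000 peaks of each library with the highest −log10 q, called the strongest peaks below, were fitted beside the deposited lists. Read depth is unknown, and its part in any difference was not tested. Loci of 8 macrophage marker genes were covered by 31625 to 33152 bp in old libraries and by 33031 to 33557 bp in young libraries, and none of the 8 was called. The loci of 8 stromal and osteoblast markers summed to 42999 to 47733 bp in old libraries and 43603 to 48700 bp in young libraries, with 1 called narrower (Bglap, osteocalcin). Over all loci, 0.578% were called narrower in old. The loci of 4 endothelial markers had lower sums in every old library, 11547 to 12223 bp in old libraries and 12859 to 13158 bp in young libraries, with 0 called, and the sums of the B cell, T cell, neutrophil and erythroid lists overlapped between the ages. The share covered ran from 0.817% at Adgre1 to 15.4% at Cd68 among macrophage markers and from 0.0412% at Gata1 to 13.6% at Klf1 among markers of other cell types, and no marker locus was without peaks in all 6 libraries. The part of other cells in the results below was not tested. On the strongest peaks the macrophage marker loci summed to 15405 to 15684 bp in old libraries and 18231 to 19199 bp in young libraries. Mertk was the 1 of 7 tested that was called narrower, though not with any one library left out (adjusted p 0.0681 to 0.108 in limma). Over all loci, 0.438% were called narrower on those peaks. The stromal and osteoblast loci summed to 14071 to 15280 bp in old libraries and 10853 to 12689 bp in young libraries on the strongest peaks, and their part in the results on those peaks was not tested. How often the sums of other gene lists lie apart between the ages is not given here, so the list sums have no background beside them. The loci of Cd3e, Ly6g, Hba-a1 and Gata1, of T cells, neutrophils and erythroid cells, held none of the strongest peaks in any library. The other loci of those lists held some, with means of up to 2229 bp in old libraries (Klf1) and 2755.5 bp in young (Lck). Every macrophage marker locus held some too. Means there ran from 379 bp at Adgre1 to 3131 bp at Cd68 in old libraries, and from 415 bp at Adgre1 to 4485 bp at Mertk in young libraries.

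The osteoclast loci were open to very different degrees. The share of a locus covered by peaks averaged 13.0% at Acp5, over 3 times the median of 4.26% for all protein-coding loci, and 0.211% at Calcr. Between these stood Ocstamp with 9.54%, Nfatc1 with 8.75%, Ctsk with 8.23%, Mmp9 with 8.11%, Oscar with 6.87%, Atp6v0d2 with 5.95%, Tnfrsf11a with 5.19% and Dcstamp with 3.25%, each the mean of 6 libraries after scaling. Dcstamp and Calcr lay below the median locus and the other 8 above it, and the quartiles of all loci were 1.46% and 6.99%. The 6 values of Acp5 lay apart from those of Ocstamp, those of Tnfrsf11a apart from those of Dcstamp and those of Dcstamp apart from those of Calcr. All other neighbours in this order overlapped in their values.

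**Figure D1:**
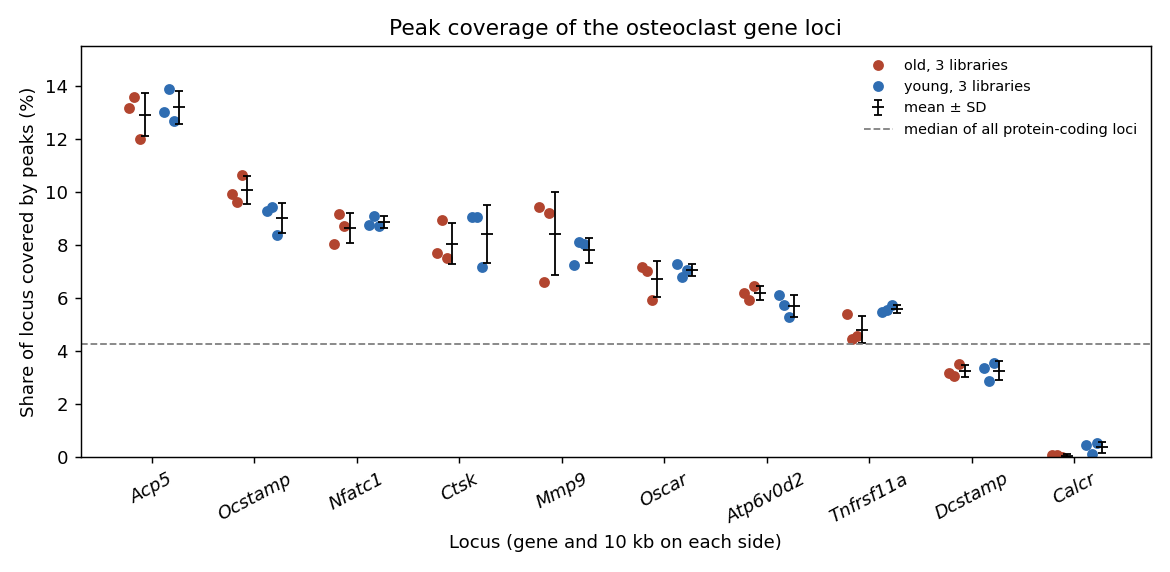
Share of each osteoclast gene locus covered by peaks, in percent after scaling, with 1 point per library (3 old, red; 3 young, blue) and the mean ± SD beside the points; the dashed line is the median of all protein-coding loci, 4.26%. Old and young points lie close together at each gene compared with the distance from Acp5 at 13.0% to Calcr at 0.211%.

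No osteoclast locus was called wider or narrower in old macrophages. Of the 10 loci, 9 passed the filter of a mean of 500 covered bp and Calcr did not. Over all 16952 loci tested with limma on log2(bp + 200), 0.383% were called wider and 0.578% narrower in old at an adjusted p under 0.05, and 0 of the 9 osteoclast loci were called. Of these 9 loci, 4 had a higher and 5 a lower mean log2 value in old than in young. Their median log2 difference was -0.03, beside 0.01 over all loci, and they ran from -0.21 at Tnfrsf11a to 0.15 at Ocstamp, within the 5th to 95th percentile of all loci, -0.30 to 0.26. One locus, Tnfrsf11a, had an unadjusted p under 0.05, which 12.8% of all loci reached. On the strongest peaks, 0.841% of 14395 loci were called wider and 0.438% narrower, and again 0 of the 9 osteoclast loci tested. A fold on this scale understates a change at a sparsely covered locus, and fewer cells with an open site cannot be told apart from less accessible DNA in each cell.

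**Figure D2:**
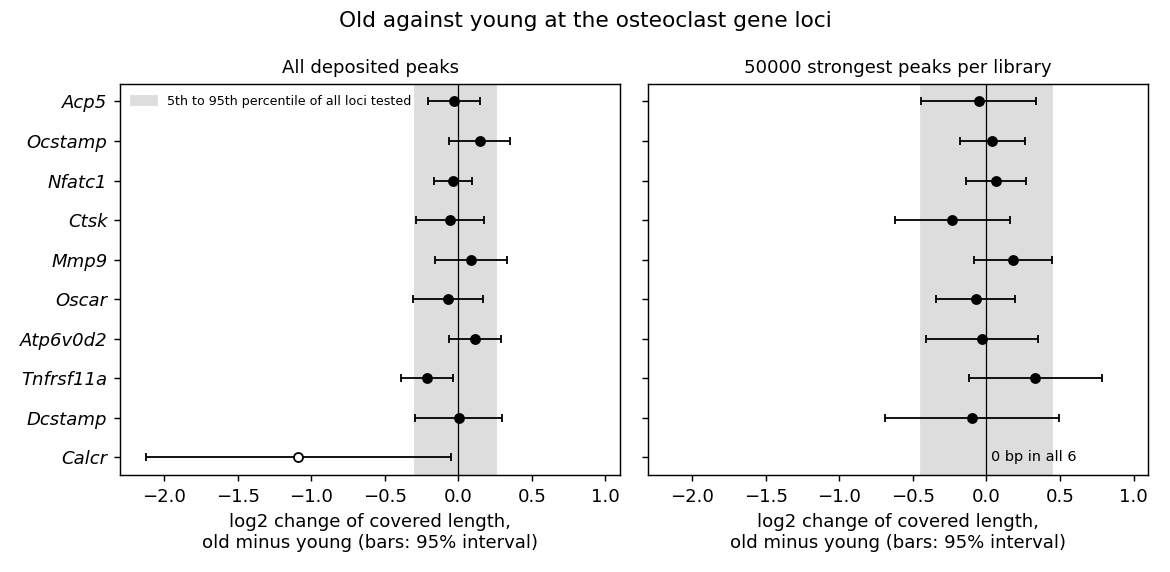
Log2 change in covered length, old minus young, with its 95% interval, for each osteoclast gene locus on all deposited peaks (left) and on the 50000 strongest peaks per library (right); the open circle is Calcr, which was below the filter and comes from the fit without it, and grey bands hold the 5th to 95th percentile of all loci. The 9 loci tested lie between -0.21 and 0.15 on the left, and of these 9 intervals only that of Tnfrsf11a leaves out 0.

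Among the receptors, Tnfrsf11a (chromosome 1, 105780673 to 105849444), the gene of RANK, had the lowest adjusted p of the 9 loci. Peaks covered 5.39%, 4.47% and 4.55% of its locus in old libraries, against 5.46%, 5.54% and 5.74% in young libraries. All 3 old values lay below the young ones, as at 8.37% of all loci, and old 1 was close to young 1. The scaled coverage was 4263 ± 452 bp in old and 4952 ± 130 bp in young libraries (SD, n = 3 each). The log2 difference was -0.21 (SE 0.08, 95% interval -0.39 to -0.03), and its adjusted p of 0.288 in limma did not pass. On the strongest peaks the order turned, with 1370, 2003 and 1547 bp in old libraries against 1381, 907 and 1528 bp in young libraries, and a log2 difference of 0.33 (SE 0.20, adjusted p 0.497 in limma). The peak number, 21, 22 and 17 in old and 24, 19 and 27 in young libraries, gave an exact two-sided permutation p of 0.4, where 3 against 3 allows no p below 0.10.

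One region inside Tnfrsf11a counted among the strongest peaks in the old libraries alone. Peaks that overlapped by at least 1 bp across the libraries were merged into regions, and the region from 105827769 to 105828383, in the gene body, held a peak in all 6. Its −log10 q, a peak's strength as the authors' caller gave it, was 10.7, 7.59 and 6.60 in old libraries and 8.35, 4.98 and 8.82 in young libraries. The weakest of the 50000 strongest peaks had a −log10 q of 9.53, 5.72 and 6.47 in old libraries and 8.86, 6.71 and 9.96 in young libraries, so this peak lay inside that limit in each old library and outside it in each young one. Old 3 was just inside the limit and young 1 just outside it. On the strongest peaks alone it covered 511, 381 and 245 bp in old libraries and 0 bp in each young library. The young values of 0 are set by the limit, so its call as wider there, made for 4.43% of 50552 regions, restates on which side of the limit each peak fell and is no test of a difference. On the deposited lists the same region covered 456, 450 and 285 bp after scaling in old libraries and 528, 381 and 310 bp in young libraries, with a log2 difference of -0.02 (SE 0.22, adjusted p 0.972 in limma). It was found after the values were seen. Of the 198 osteoclast regions, 1 was among the strongest peaks in all 3 old libraries and no young one. The same held for 1436 of the 281354 regions in the loci of protein-coding genes.

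Toward its 3′ end Tnfrsf11a had a weaker region, 105843326 to 105843861, with 303, 0 and 0 bp in old libraries and 327, 212 and 462 bp in young libraries. Old 1 carried it at the level of the young libraries and old 2 and 3 had no peak there. Its log2 difference was -1.41 (SE 0.54, adjusted p 0.279 in limma). Fitted without the filter on the number of libraries, it was called narrower (SE 0.31, adjusted p 0.0014 in limma), where 1.13% of 403801 regions were called narrower. The region passes that filter through its young libraries alone, so neither fit is an independent test of it. Its values and log2 difference were the same in both fits. The call thus rests on the smaller SE that came from fitting more regions together, and not on other values of this region. The strongest region of the locus, 105787046 to 105787492 in the gene body, had a −log10 q of 20.7, 11.0 and 9.39 in old and 23.3, 13.6 and 21.3 in young libraries, and a log2 difference in covered length of -0.13 (SE 0.15, adjusted p 0.749 in limma). The start of Tnfrsf11a, whose upstream sequence is printed above, lay under peaks of 546, 250 and 482 bp in old libraries and 475, 792 and 306 bp in young libraries. Those peaks were of moderate strength, with a −log10 q of 6.34, 5.99 and 6.13 in old and 8.79, 5.20 and 12.8 in young libraries.

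Oscar (chromosome 7, 3609813 to 3616157), the gene of a collagen-binding costimulatory receptor, was covered over 7.16%, 7.03% and 5.92% of its locus in old libraries and 7.26%, 6.81% and 7.06% in young libraries. Old 3 was the lowest of the 6 and the groups overlapped, with a log2 difference of -0.07 (95% interval -0.31 to 0.17, adjusted p 0.863 in limma). The start of Oscar had no peak in any library. The strongest region in the locus, 3617002 to 3618030, began 0.845 kb upstream of Oscar and lay over the start of Ndufa3, a gene of respiratory complex I. It covered 907, 978 and 793 bp in old and 941, 931 and 801 bp in young libraries, so a large part of the coverage counted for Oscar belongs to a site that both genes share by position.

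Calcr (chromosome 6, 3685678 to 3764713), the gene of the calcitonin receptor and a late marker of osteoclasts, was nearly closed. Peaks covered 69.1, 91.7 and 0 bp of its locus in old libraries, against 461, 120 and 514 bp in young libraries. Each old library lay below each young one, as at 1557 of the 21631 loci without the filter, and old 2 and young 2 were close. The locus held 1, 1 and 0 peaks in old and 3, 2 and 3 peaks in young libraries (exact two-sided permutation p of 0.10, the smallest possible; 0.75 adjusted over the 10 loci). In the fit without the filter the log2 difference was -1.09 (SE 0.39, 95% interval -2.13 to -0.05, adjusted p 0.469 in limma), which did not pass. All 6 of its regions were weak. The one with the strongest peak, 3741241 to 3741545, reached a −log10 q of 4.14 in young 1 and 2.96 in young 3 and had no peak in the other libraries. The region found in the most libraries, 3745693 to 3745846, had a peak in old 1, young 2 and young 3. Neither of the 2 starts of Calcr lay under a peak in any library, and no peak of the locus was among the strongest in any of the 6.

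Nfatc1 (chromosome 18, 80606205 to 80713071), the transcription factor gene on which the pathway converges, held the most peaks, 39, 33 and 30 in old libraries and 38, 35 and 40 in young libraries. Coverage was 8.05%, 9.18% and 8.71% of the locus in old libraries and 8.75%, 9.10% and 8.72% in young libraries. Old 1 was the lowest and old 2 the highest of the 6, so the old values enclosed the young ones. The log2 difference was -0.04, and its 95% interval of -0.17 to 0.10 was the narrowest of the loci tested (adjusted p 0.870 in limma). With the strongest peaks it was 0.06 (adjusted p 0.811 in limma). Of its 58 regions, 20 held a peak in all 6 libraries, and 18 of these lay within the gene. The strongest, 80691532 to 80692313, had a −log10 q of 28.3, 16.9 and 17.8 in old and 25.3, 25 and 29.4 in young libraries, and its covered length did not pass the test (log2 difference 0.15, SE 0.14, adjusted p 0.704 in limma).

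Nfatc1 also held the only region of the 198 with a peak in all 3 libraries of one age and none of the other. This region, 80609049 to 80609350 in the gene body, covered 0 bp in each old library and 204, 193 and 128 bp in the young libraries. Its peaks were weak, with a −log10 q of 1.78, 2.56 and 1.85 in young libraries, near the lowest deposited values of just over 1. It was chosen for this pattern and entered the region fit only through the young libraries, so its difference is given as a description, without a test. Peaks in 3 young and 0 old libraries were found at 1.35% of the 281354 regions in the loci of protein-coding genes, and peaks in 3 old and 0 young libraries at 0.469%. The osteoclast loci held 1 and 0 such regions. Without old 1 the first count was 8 and without young 2 it was 7, when fewer libraries must lack or hold a peak. The shares over all regions with a library left out are not given here, so these 2 counts have no background beside them.

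The upper end of Nfatc1 lay in a further region, 80712390 to 80713252, with 407, 553 and 343 bp in old libraries and 787, 623 and 515 bp in young libraries. Old 2 was above young 3, so the groups overlapped, and the log2 difference of -0.48 (SE 0.19, adjusted p 0.308 in limma) did not pass. A pair of weak sites in the body differed in opposite directions by their values. Region 80628957 to 80629281 had 0, 0 and 145 bp in old and 169, 223 and 280 bp in young libraries, and 80608314 to 80608481 had 135, 176 and 176 bp in old and 135, 0 and 0 bp in young libraries. Both were chosen after the values were seen and passed the filter on the number of libraries through the age where they were wider. Their differences are therefore given as a description, without a test. At the first, each old value was below each young one, as at 10.9% of all regions tested.

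**Figure D3:**
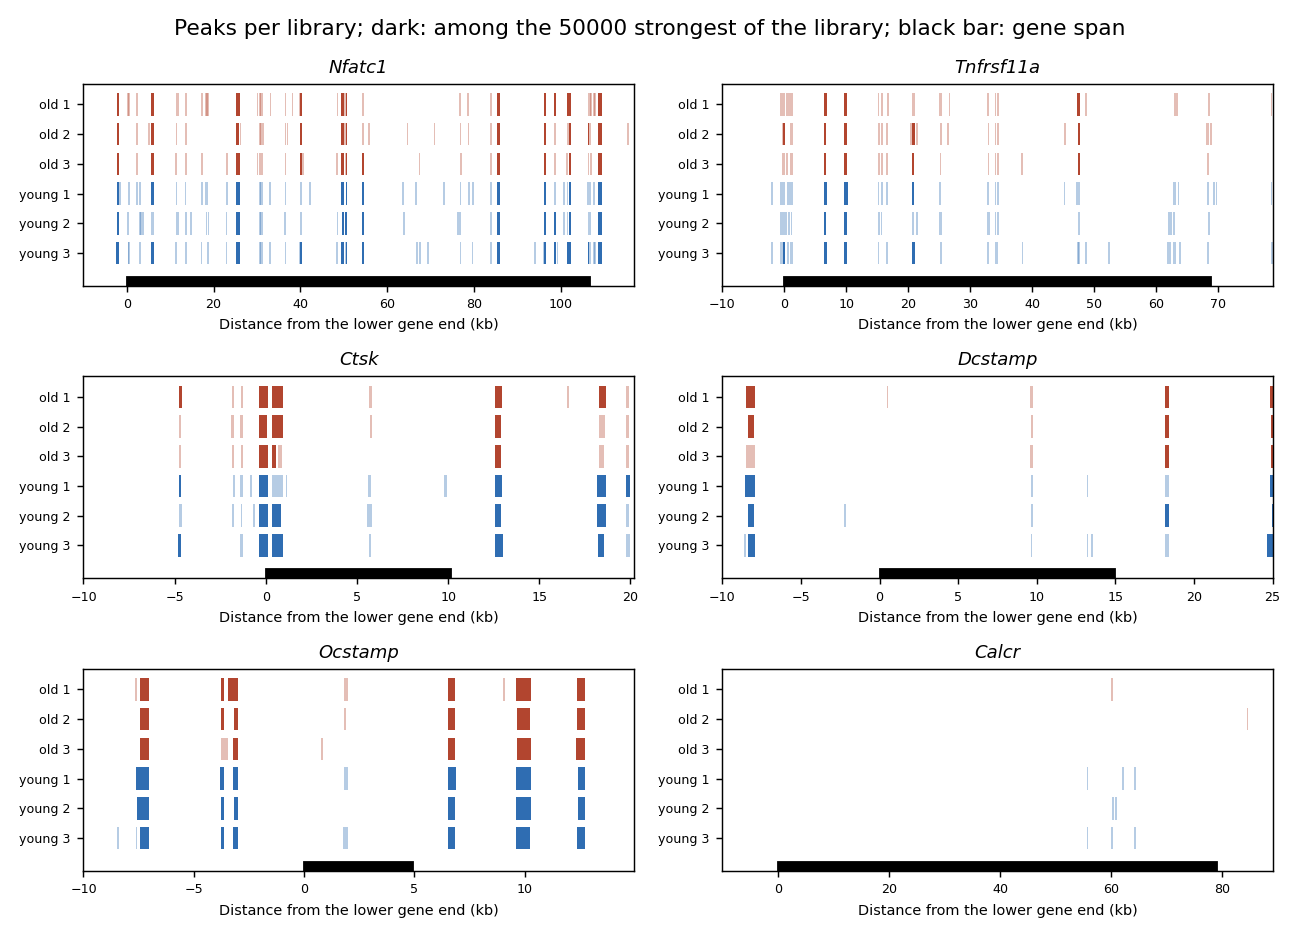
Peaks of each library along 6 of the osteoclast loci, as distance in kb from the lower gene end, with old libraries in the upper 3 rows (red) and young libraries in the lower 3 (blue); dark blocks are among the 50000 strongest peaks of that library, pale blocks are the other deposited peaks and the black bar is the gene span. The blocks of Ctsk, Dcstamp and Ocstamp line up over the 6 libraries, while Calcr has 2 peaks in the old libraries and 8 in the young ones, all pale.

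Of the fusion genes, Dcstamp and Ocstamp had most of their coverage outside the gene itself, which also held for Oscar, Acp5 and Ctsk. In old libraries the mean within the gene span and over the whole locus was 110 and 1766 bp at Oscar and 1177 and 3747 bp at Acp5. At Ctsk it was 773 and 2430 bp, with spans and loci scaled separately. Dcstamp (chromosome 15, 39745930 to 39760938) encodes a multipass membrane protein needed for the fusion of osteoclast precursors. Its locus was covered over 3.18%, 3.07% and 3.50% in old libraries and 3.36%, 2.85% and 3.54% in young libraries, and the values interleaved. The log2 difference rounded to 0.00, with a 95% interval of -0.29 to 0.30 (adjusted p 0.996 in limma). Within the gene span alone peaks covered 223, 190 and 179 bp in old and 219, 102 and 182 bp in young libraries. The strongest region, 39770608 to 39771481, began 9.67 kb beyond the upper end of the gene, inside Dpys, and had a −log10 q of 44.8, 24.7 and 34.3 in old and 41.7, 28.8 and 43.0 in young libraries. Between 1.26% and 2.22% of a library's peaks were stronger than this one.

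Ocstamp (chromosome 2, 165395450 to 165400394), whose product acts with that of Dcstamp in fusion, was covered over 9.91%, 9.62% and 10.6% of its locus in old libraries, against 9.27%, 9.41% and 8.37% in young libraries. All 3 old values lay above the young ones, as at 8.61% of all loci, and old 2 was close to young 2. The log2 difference of 0.15 (SE 0.10, 95% interval -0.06 to 0.35, adjusted p 0.587 in limma) did not pass, and on the strongest peaks it was 0.04 (adjusted p 0.894 in limma). In the gene span alone peaks covered 176, 69.9 and 66.1 bp in old libraries and 165, 0 and 185 bp in young libraries. Most of the coverage lay in 5 flanking regions, each of them among the strongest peaks in all 6 libraries. The strongest, 165405060 to 165405730, lay 4.67 kb beyond the upper end at one end of Slc13a3, with a −log10 q of 43.4, 30.8 and 27.1 in old and 40.3, 30.9 and 44.6 in young libraries. Another, 165391659 to 165392470, covered 581, 417 and 622 bp in old libraries and 351, 393 and 325 bp in young libraries. Each old value was above each young one there, as at 8.57% of all regions tested. Its log2 difference of 0.48 (SE 0.16, adjusted p 0.223 in limma) did not pass.

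Atp6v0d2 (chromosome 4, 19876838 to 19922566) encodes the d2 subunit of the vacuolar proton pump, which in osteoclasts also takes part in fusion. Peaks covered 6.20%, 5.91% and 6.45% of its locus in old and 6.11%, 5.73% and 5.28% in young libraries. Old 3 was the highest and young 3 the lowest, and the groups overlapped, with a log2 difference of 0.11 (95% interval -0.07 to 0.29, adjusted p 0.644 in limma). Its strongest region lay inside the gene, at 19895213 to 19895941, with a −log10 q of 18.2, 16.5 and 12.6 in old libraries and 25.7, 19.4 and 30.4 in young libraries. The covered length of that region was nearly equal, with a log2 difference of -0.06 (SE 0.16, adjusted p 0.904 in limma). A weak site 2.87 kb below the gene, 19873619 to 19873972, had 304, 351 and 374 bp in old and 295, 138 and 99.1 bp in young libraries, and a weak site in the body, 19892286 to 19892469, had 72.3, 0 and 0 bp in old and 120, 160 and 127 bp in young libraries. Each old value was above each young one at the first site and below at the second, as at 8.57% and 10.9% of all regions tested. The log2 difference of the first was 0.74 (adjusted p 0.235 in limma). The second passed the filter on the number of libraries through the young libraries, so it is described without a test. Both were chosen after the values were seen.

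Of the resorption genes, Acp5 (chromosome 9, 22126727 to 22135746), which encodes tartrate-resistant acid phosphatase, the stain by which osteoclasts are recognised, had the most open locus of the 10. Its coverage was 13.2%, 13.6% and 12.0% in old libraries and 13.0%, 13.9% and 12.7% in young libraries. The groups overlapped and the log2 difference was -0.03 (95% interval -0.21 to 0.15, adjusted p 0.924 in limma). In the gene span without flanks peaks covered 1257, 1319 and 956 bp in old and 1036, 1080 and 780 bp in young libraries, a log2 difference of 0.24 (SE 0.15, adjusted p 0.554 in limma). That is the other direction, and neither value passed. The 3 starts of Acp5 lay under a peak in few libraries or none. One of them, 22135746, had no peak in any library; 22131865 lay under a peak in old 1, old 2 and young 1, and 22130598 in old 3 and young 3. The strongest region of the locus, 22116624 to 22117506, lay 9.22 kb downstream over the start of Elof1, an elongation factor gene, with a −log10 q of 21.9, 19.8 and 18.7 in old and 27.2, 16.7 and 24.3 in young libraries.

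Ctsk (chromosome 3, 95499210 to 95509387) encodes cathepsin K, the main collagen-degrading protease of the osteoclast, and was, with Tnfrsf11a, 1 of the 2 genes with a start under a peak in all 6 libraries, among the 5 with a matched start. The peaks over its start were 477, 456 and 476 bp wide in old libraries and 486, 454 and 493 bp wide in young libraries. Their −log10 q was 20.8, 11.2 and 10.8 in old and 12.2, 9.68 and 15.3 in young libraries, and the fold enrichment over local background, a ratio given by the authors' caller, was 6.09, 5.24 and 4.87 in old and 5.05, 4.85 and 5.43 in young libraries. These peaks span the 250 bases with both PU.1 motifs printed above. Of the 32580 promoter starts in the table, 38.5% lay under a peak in all 6 libraries and 51.2% in none, and of the 8 osteoclast starts, 2 and 4 did. Over the whole locus, coverage was 7.71%, 8.93% and 7.52% in old and 9.04%, 9.06% and 7.15% in young libraries, with young 3 the lowest. The log2 difference was -0.06 (95% interval -0.28 to 0.17, adjusted p 0.888 in limma). The strongest region of Ctsk was not the start but 95511784 to 95512232, 2.40 kb downstream, with a −log10 q of 37.7, 22.5 and 25.1 in old and 36.2, 32.7 and 42.0 in young libraries and a log2 difference of -0.03 (adjusted p 0.947 in limma). A weak site 1.73 kb upstream, 95497325 to 95497480, had 91.1, 176 and 120 bp in old libraries and 35.7, 71.8 and 0 bp in young libraries, a log2 difference of 0.77 (adjusted p 0.331 in limma). Each old value was above each young one there, as at 8.57% of all regions tested, and the site was chosen after the values were seen.

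Mmp9 (chromosome 2, 164940326 to 164955850) encodes gelatinase B, a matrix protease. Its locus was covered over 9.44%, 6.61% and 9.20% in old libraries and 7.25%, 8.12% and 8.04% in young libraries. Old 2 was the lowest of the 6 and old 1 and 3 the highest, so the spread among old libraries was wider than the distance between the ages. The log2 difference was 0.09 (95% interval -0.16 to 0.33, adjusted p 0.817 in limma), and without old 2 it was 0.24 (adjusted p 0.362 in limma). The strongest region, 164935666 to 164936343, began 3.98 kb beyond the lower end of the gene and covered 583, 640 and 694 bp in old libraries against 517, 549 and 458 bp in young libraries. Each old value was above each young one, as at 8.57% of all regions tested, and the log2 difference of 0.28 (SE 0.12, adjusted p 0.345 in limma) did not pass. The locus held 14, 10 and 12 peaks in old and 15, 13 and 16 in young libraries (exact two-sided permutation p of 0.2).

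Across the 10 loci most of the open DNA was common to both ages. The libraries' peaks merged into 198 regions, of which 81 (40.9%) held a peak in all 6 libraries and 67 (33.8%) in 1 library. Over the regions in the loci of all protein-coding genes these shares were 31.2% and 39.9%. The 81 shared regions held between 83.1% and 93.0% of the base pairs covered at these loci in each library. The same share over other loci is not given here, so it is not a trait of the osteoclast loci. Of the 81, 46 lay within a gene span and the rest in the flanks. By locus the shared regions numbered 20 at Nfatc1, 12 at Atp6v0d2, 11 at Tnfrsf11a, 9 at Acp5, 8 at Mmp9, 7 at Ctsk, 5 each at Ocstamp and Oscar, 4 at Dcstamp and 0 at Calcr. Of the 198, 30 (15.2%) were among the strongest peaks in all 6 libraries. This share was 9.34% over the 281354 regions in the loci of protein-coding genes and 8.34% over all 403801 regions. A region can hold peaks of different width and position, so a shared region is not a claim of equal accessibility.

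No osteoclast region was called in the region fit. Over 198727 regions with peaks in at least 3 libraries, limma on log2(bp + 100) called 0.0871% wider and 0.119% narrower in old, and 0 of the 112 osteoclast regions tested. Of these 112, 58 had a higher and 54 a lower mean log2 value in old than in young, with a median of 0.01 beside -0.02 over all regions. An unadjusted p under 0.05 was reached by 10 of the 112 and by 14.6% of all regions. All 3 old values lay above the young ones at 7 of them and below at 6, shares that were 8.57% and 10.9% over all regions.

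**Figure D4:**
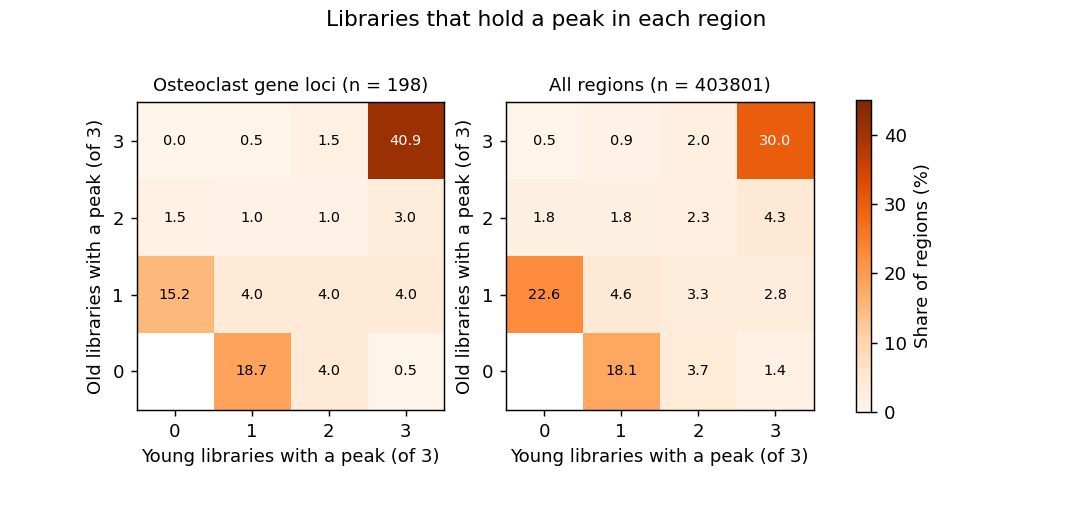
Share of regions, in percent, by the number of young (horizontal) and old (vertical) libraries that hold a peak, for the 198 regions of the osteoclast loci (left) and all 403801 regions (right). The corner with a peak in all 6 libraries holds 40.9% on the left and 30.0% on the right, and the corners for peaks in 3 libraries of one age and none of the other hold little in both.

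Other genes of the pathway, 62 in 6 lists that were fixed by role, showed 1 called locus on the deposited lists. Over all loci, 0.383% were called wider and 0.578% narrower in old. Of the 61 pathway loci tested, 26 had a higher and 35 a lower mean in old, with a median log2 difference of -0.03. Mef2c, a transcription factor gene of the MEF2 family, was narrower in old, with 7577, 7602 and 8289 bp in old libraries against 9320, 10168 and 9999 bp in young libraries. All 3 old values lay below the young ones, as at 8.37% of all loci, with a log2 difference of -0.32 (SE 0.07, adjusted p 0.0250 in limma). This call did not pass without old 2, young 1, young 2 or young 3 (adjusted p 0.0758, 0.0674, 0.0715 and 0.107) or on the strongest peaks (log2 difference -0.33, adjusted p 0.147 in limma). Further settings under which it did not pass are given at the end. On the strongest peaks, 0.841% of all loci were called wider and 0.438% narrower in old. There the 1 called locus of 59 tested was Tfec, a relative of MITF expressed in macrophages and osteoclasts. Tfec had 980, 758 and 956 bp in old libraries against 1489, 1725 and 1682 bp in young libraries. Its log2 difference was -0.74 (SE 0.13, adjusted p 0.0401 in limma), and the adjusted p was 0.0776 to 0.114 with any one library left out. All deposited peaks gave -0.06 at Tfec (adjusted p 0.894 in limma).

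Within RANK signalling, 6 of 15 loci had a higher and 9 a lower mean in old and 0 were called. The smallest p were those of Fosl2, an AP-1 subunit, with a log2 difference of 0.27 (adjusted p 0.120 in limma), and Tnfrsf11b, the gene of the decoy receptor osteoprotegerin, with -0.29 (adjusted p 0.159). Of the costimulation genes, 2 of 9 tested were higher and 7 lower and 0 were called, with Plcg2 at -0.18 (adjusted p 0.247) and Ppp3ca, the catalytic subunit of calcineurin that activates NFAT, at -0.07 (adjusted p 0.634). The transcription factors had 3 of 8 higher and 5 lower, and Bhlhe40 followed Mef2c with -0.10 (adjusted p 0.665). Repressors of osteoclast formation had 3 of 7 higher and 4 lower with 0 called, and the smallest p at Bcl6 with -0.12 (adjusted p 0.665) and Zbtb7a with 0.10 (adjusted p 0.697).

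Fusion and adhesion genes had 5 of 9 higher and 4 lower with 0 called. Sirpa, the receptor for CD47, had 0.13 (adjusted p 0.525 in limma) and Itgb3, the integrin by which osteoclasts hold bone, had -0.09 (adjusted p 0.623). Genes of acid secretion and resorption had 7 of 13 higher and 6 lower with 0 called. Ostm1, the partner of the chloride transporter ClC-7, had -0.41 (adjusted p 0.129), and Cst3, the cysteine protease inhibitor cystatin C, had 0.33 (adjusted p 0.320). With the strongest peaks the smallest adjusted p that did not pass were those of Tnfsf11, the gene of RANK ligand, at 0.0511 (log2 difference 0.89) and Rbpj, which restrains Nfatc1 induction, at 0.0554 (log2 difference 0.46). All deposited peaks gave the other sign at both, -0.08 at Tnfsf11 (adjusted p 0.884 in limma) and -0.07 at Rbpj (adjusted p 0.742). Stromal cells make RANK ligand. The summed marker loci of stromal cells and osteoblasts had more covered base pairs on the strongest peaks in old libraries, as given above, but the single loci differed in direction. On those peaks 4 of the 6 tested were higher and 2 lower in old, and on the deposited lists 1 of 8 was higher and 7 lower. Their part in the value at Tnfsf11 was not tested.

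Several osteoclast loci share DNA with other genes by their flanks. Elof1 reached into the locus of Acp5, Arnt into that of Ctsk, Dpys into that of Dcstamp, Zfp334 and Slc13a3 into that of Ocstamp, Ndufa3 and Tfpt into that of Oscar and Slc12a5 into that of Mmp9. None of these 8 protein-coding neighbours was called, with adjusted p from 0.676 at Zfp334 to 0.976 at Ndufa3 in limma. Fitted over the gene spans without flanks, where 0.416% of 13458 loci were called wider and 0.535% narrower, 6 osteoclast genes passed the filter and 0 were called.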

How the data were processed

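ATAC-seq of old and young marrow macrophages, 3 libraries each of 50000 cells, was read from both ends (125 bp, 4 lanes), per the labels' protocols. Tools listed without roles in the submitters' processing notes were MACS2 2.1.0.20140616, Bowtie2 2.2.6, Picard, SAMtools, cutadapt 1.14 and Trim Galore 0.4.4, with the build mm10. The authors deposited 1 broad peak list per library, without pooling. A deposited peak has a score, a fold enrichment (a ratio over local background) and its −log10 p and −log10 q, which are the authors' and serve here to describe, rank or filter peaks within a list. The sources used here give no read depth, removal of duplicates or shift of read ends. A deeper library can have more and wider peaks, and no peak means only that none was called.

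From the lists, base pairs covered by peaks were summed over each protein-coding gene plus 10 kb on each side (RefSeq, GRCm38.p6, whose primary chromosomes are those of mm10), scaled so that every library had the same sum over loci. Where the unscaled mean was at least 500 bp, a locus entered a limma fit (version 3.58.1, R 4.3.3, robust empirical Bayes with trend) on log2(bp + 200), and merged regions were tested on log2(bp + 100). Differences are old minus young, adjusted by Benjamini-Hochberg over all features and a threshold of 0.05. The scripts were tested on simulated data. Python 3.11.15, numpy 2.4.6, pandas 2.3.3, scipy 1.17.1 and matplotlib 3.10.9 were used. The osteoclast genes, the pathway and marker lists and the tests were chosen with earlier results of these data known. Named by rule were all 10 genes, the strongest region and start regions of each, regions past the threshold or of one age only, and in each pathway list the genes past the threshold and the 2 with the smallest p; other regions, and 2 values of pathway genes on the strongest peaks, were chosen after the values were seen. Alternatives were other −log10 q limits, the 50000 strongest peaks, other pseudocounts, scalings, filters and windows, a covariate, each library left out and a replicate block.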

Additional observations from a re-analysis of the deposited data

How the results depend on the processing

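At an adjusted p under 0.05, 0 of the 9 osteoclast loci tested were called in any of the 141 alternative fits of single loci, with a smallest adjusted p of 0.0854 at Tnfrsf11a. Their small log2 differences changed sign in part, and the cause was not tested. A −log10 q of at least 2 gave -0.0038 at Dcstamp and 0.031 at Oscar, and one of at least 5 gave 0.12 at Tnfrsf11a and 0.0085 at Nfatc1. The strongest peaks gave 0.33 at Tnfrsf11a, 0.063 at Nfatc1, -0.10 at Dcstamp and -0.031 at Atp6v0d2. Without scaling, which moved the median of all loci to -0.14, the values were -0.14 at Dcstamp, -0.0058 at Ocstamp, -0.065 at Mmp9 and -0.045 at Atp6v0d2. Gene spans without flanks gave 0.24 at Acp5 and -0.031 at Atp6v0d2. With 1 library left out the range was -0.065 to 0.020 at Acp5, -0.079 to 0.014 at Nfatc1, -0.074 to 0.058 at Dcstamp and -0.11 to 0.010 at Oscar.

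Of 59 pathway genes tested on both kinds of list, 19 had the opposite sign on the strongest peaks. Those named for the deposited lists that turned were Cst3 (-0.042), Itgb3 (0.31), Ppp3ca (0.11) and Tnfrsf11b (0.30) on the strongest peaks, Fosl2 (-0.31) without flanks, Ostm1 (0.0050) at a −log10 q of at least 5, and Sirpa (-0.033) and Zbtb7a (-0.059) without scaling. Tnfrsf11b passed without flanks (-0.54, adjusted p 0.0447 in limma). The adjusted p of Mef2c ran from 0.0185 with the replicate block to 0.433 without scaling. Mef2c also did not pass at a −log10 q of at least 2 or 5 (adjusted p 0.107 and 0.327 in limma) or without the filter (0.271). Without flanks its adjusted p was 0.0516 and with total covered length as covariate 0.0537, both in limma. The Bglap call (-0.53, adjusted p 0.0367 in limma) passed without old 1 and did not with any other library left out (adjusted p 0.0700 to 0.189).

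Counts over all loci moved more. Loci called wider in old numbered 65, and 3 at a −log10 q of at least 5, 121 on the strongest peaks, 2 without scaling, 0 without the filter (with 2217 loci of either direction at an unadjusted p under 0.05 in limma), 36 with total covered length as covariate and 16 to 92 with 1 library left out. Loci called narrower numbered 98, and 6, 63, 13, 4 and 24 under the same settings in that order and 15 to 260 with 1 library left out. Same-numbered libraries correlated at 0.139, 0.132 and -0.162 in their deviations from the age means, and differently numbered ones at -0.322 to 0.263. Deviations from a mean of 3 libraries constrain each other, so these values cannot show whether replicate numbers pair the libraries. A replicate block gave 98 wider and 178 narrower loci, and 0 among the osteoclast genes.

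In the osteoclast loci 1 region was called wider on the strongest peaks and 1 narrower without the filter, both in Tnfrsf11a. The first was fixed by the limit on strength, and the second had the log2 difference of the filtered fit with a smaller SE. Regions with peaks in old libraries alone numbered 1 at a −log10 q of at least 2, on the strongest peaks and when gaps of up to 100 bp were merged, and 0 to 2 with 1 library left out. Those with peaks in young libraries alone numbered 2 and 0 under the first pair of these settings and 1 to 8 with 1 library left out, when fewer libraries must lack or hold a peak. The shares over all regions under these settings are not given here. Read depth is unknown.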
